A study of Mus musculus and Rattus norvegicus with 37 samples.

Results

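The genes described here are 8 acyl-CoA thioesterases (Acot1, Acot2, Acot3, Acot4, Acot7, Acot8, Acot12 and Acot13) and 2 acyl-CoA N-acyltransferases (Acnat1 and Acnat2), taken by name from the deposited liver RNA-seq tables. They are 10 of 48059 named entries in the mouse tables and 10 of 32549 in the rat tables. Acot1 and Acnat2 were chosen by their measured values in these same libraries. Acot1 was chosen for its change with miR-29 inhibition and Acnat2 for its change between Zucker Fatty and Zucker Lean rats. Their values and fold changes are therefore given as a description with no test. The other 8 genes were tested.

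RNA was measured in 37 livers. All 21 mice were females and received either LNA29 or saline. LNA29 combines antisense locked nucleic acids against miR-29a-3p and miR-29bc-3p, injected under the skin at 20 mg/kg each. Livers were taken from fed mice at day 7. The WT/Floxed group pooled 7 C57BL/6J WT mice of 9 to 11 weeks (4 LNA29, 3 saline) with 6 mice of 15 to 20 weeks that carried floxed Sirt1 alleles (4 LNA29, 2 saline), after the authors had left out 1 saline floxed mouse as an outlier. The L-Sirt1 KO mice (4 LNA29, 4 saline) were littermates of the floxed mice with Sirt1 deleted in liver. The driver of the deletion is not given in the sources used here, and the control injection was saline rather than an unrelated LNA. The 16 rats were males. Zucker Fatty rats (ZFR, fa/fa, lacking a working leptin receptor, n = 4) were compared with Zucker Lean rats (ZLR, n = 4) at 5.5 months on chow. In a separate experiment ZFR of 3 months received BT2, an inhibitor of the kinase that inactivates branched-chain α-keto acid dehydrogenase, at 20 mg/kg daily for 1 week (n = 4) or vehicle (n = 4). Where the labels do not say that libraries are separate animals, the p-values measure only the spread between these libraries.

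All values are normalized counts, with each of the 4 tables normalized on its own, so levels were compared within a table. Estimated depth, from what 1 read was worth, ran from 42.6 to 77.9 M reads over the mouse libraries but from 0.185 to 57.2 M over the rat libraries, with 12 of 16 under 5 M and 6 under 1 M. Intervals from such counts would cover counting error only. The Sirt1 level was 492.7 to 699.1 in the 13 WT/Floxed livers and 534.6 to 616.5 in the 8 livers labelled L-Sirt1 KO. These ranges overlap, so the gene-level value does not separate the genotypes. Transcripts that lack only a deleted exon would still be counted. The paper also compared hepatic Sirt1 between these genotypes by RT-qPCR, and those values are not repeated here. The summed hepatocyte markers were above every other marker list in all 4 tables.

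Acyl-CoA thioesterases split an acyl-CoA into the free acid and coenzyme A, and so set how much activated fatty acid and how much free coenzyme A a compartment holds. Acot1 works in the cytosol and Acot2 in the mitochondrial matrix, while Acot3, Acot4 and Acot8 are peroxisomal. Acnat enzymes belong to the protein family of Acot1 to Acot4 but pass the acyl group to an amino acid such as taurine. Their close relative Baat does this with bile acids. In rodent liver the Acot1 to Acot6 genes are known targets of PPARα, the fatty acid-sensing nuclear receptor.

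The mature miR-29 sequences are shown because LNA29 is directed at them and because they share the seed, bases 2 to 8, set in capitals (RefSeq, GRCm38.p6). Mir29a lies at chr6:31062673-31062694 on the minus strand. The miR-29b sequence is encoded at chr6:31063025-31063047 on the minus strand and at chr1:195037091-195037113 on the plus strand. Mir29c lies at chr1:195037600-195037621 on the plus strand.
miR-29a-3p: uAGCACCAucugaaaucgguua
miR-29b-3p: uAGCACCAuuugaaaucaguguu
miR-29c-3p: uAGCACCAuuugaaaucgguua
The match to this seed in a transcript, TGGTGCT, was found in the annotated 3′ UTR of 0 of the 10 genes. These UTRs were 87 to 4805 bases long. Over all 20622 genes with an annotated 3′ UTR, 11.8% held it. This search covers only these letters in these windows of 1 annotated transcript a gene.

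Acot2, Acot1, Acot4 and Acot3 stand in that order on the plus strand of mouse chromosome 12 (GRCm38). Acot2 spans chr12:83987861-83993873, Acot1 chr12:84009490-84018371, Acot4 chr12:84038379-84048601 and Acot3 chr12:84052144-84060402, and Acot5 and Acot6 follow. Acnat2 (chr4:49379840-49408151) and Acnat1 (chr4:49447105-49473912) lie side by side on the minus strand of chromosome 4, next to Baat. The other genes stand alone: Acot7 at chr4:152178134-152271855 on the plus strand, Acot8 at chr2:164792765-164804882 on the minus strand, Acot12 at chr13:91741512-91786148 on the plus strand and Acot13 at chr13:24817948-24831540 on the minus strand. The coding sequences of Acnat1 and Acnat2 were identical at 95.2% of aligned bases. Acot1 shared 85.6% with Acot2, 81.5% with Acot3 and 74% with Acot4. Of the windows of 100 bases in the longest coding transcript, 21.9% in Acot1, 17.1% in Acot2, 14.3% in Acot3, 16.6% in Acnat1 and 14.8% in Acnat2 also occurred in another gene, so the split of reads with those genes is uncertain. For Acot3, 330 of its 478 shared windows were shared with Gm49366, a gene annotated across Acot3 and Acot4 on the same strand. The reads of Acot3 therefore cannot be fully told apart from those of Gm49366. For Acot4 the share of windows also found in another gene was 0.36%, and Gm49366 was not among those genes. Acot3 and Acot4 also overlap the antisense gene 4732463B04Rik, Acot8 overlaps Snx21 and Acnat2 overlaps Gm12451, and reads of overlapping genes cannot be told apart without strand.

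The promoters of 3 cluster genes, Acot1, Acot3 and Acot4, follow, from 250 bases before to 50 after the start (RefSeq, GRCm38.p6). The capitals mark TGACCT, the reverse complement of AGGTCA, a motif that many nuclear receptors including PPARα bind. Acot1 is read at chr12:84009252-84009551, Acot3 at chr12:84051894-84052193 and Acot4 at chr12:84038129-84038428, all on the plus strand.
Acot1: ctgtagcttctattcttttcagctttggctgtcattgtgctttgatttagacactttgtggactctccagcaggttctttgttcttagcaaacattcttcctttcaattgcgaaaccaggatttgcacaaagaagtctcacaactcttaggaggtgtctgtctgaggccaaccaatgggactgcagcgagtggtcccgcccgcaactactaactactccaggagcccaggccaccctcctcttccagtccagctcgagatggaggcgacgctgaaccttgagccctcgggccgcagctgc
Acot3: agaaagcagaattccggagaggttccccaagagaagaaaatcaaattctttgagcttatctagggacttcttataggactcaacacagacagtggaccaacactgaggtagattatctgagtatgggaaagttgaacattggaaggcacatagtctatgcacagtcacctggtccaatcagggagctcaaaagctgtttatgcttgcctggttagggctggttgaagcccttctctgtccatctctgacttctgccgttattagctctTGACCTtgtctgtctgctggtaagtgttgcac
Acot4: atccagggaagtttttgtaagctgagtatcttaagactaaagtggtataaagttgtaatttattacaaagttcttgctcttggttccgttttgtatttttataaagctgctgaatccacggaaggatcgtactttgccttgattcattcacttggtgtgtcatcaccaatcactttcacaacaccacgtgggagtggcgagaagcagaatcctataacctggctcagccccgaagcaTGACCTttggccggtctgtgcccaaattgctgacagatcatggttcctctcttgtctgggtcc
AGGTCA, searched on both strands, stood in the promoters of 3 of the 9 genes that have one in the table (Acot3, Acot4 and Acot12) and in 16.3% of all 32851 promoters of the same length. The promoters of Acot1 and of the cluster gene Acot2, the latter not shown, held 0 copies. 2 copies of AGGTCA with 1 base between them, the arrangement PPARα is known to bind, were found in 0 of the 9, and in 0.0396% of all promoters. Sites outside these windows were not searched.

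Levels between genes were compared only per kilobase of the longest coding transcript, in the saline WT/Floxed livers (n = 5). Acot13, a mitochondria-associated thioesterase for long-chain acyl-CoA, was highest at 3971 ± 838 normalized counts per kilobase (SD). Acnat2 followed at 3741 ± 557, and these ranges overlapped. Acot12, a cytosolic acetyl-CoA hydrolase, had 2162 ± 356, below every Acnat2 value. Acot12, Acot1 (1606 ± 317), Acot3 (1573 ± 460) and Acnat1 (1265 ± 160) each overlapped the next in order. A gap then separated Acot8 (745 ± 72.3) and Acot7 (710 ± 53.2), which overlapped each other, from Acnat1. Acot4 (451 ± 44.8) and Acot2 (323 ± 70.8) were lowest. In the saline L-Sirt1 KO livers (n = 4), Acot1 stood second at 3427 ± 2591, with a range that reached from 985 to 6015 per kilobase.

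In L-Sirt1 KO livers, LNA29 gave lower values of the peroxisomal thioesterase Acot3, and 1 of the 8 tested genes was called. A call in mice required a change of more than 1.2-fold with p under 0.05, adjusted p under 0.2 and over 50 normalized counts on average. Of all 15885 genes tested, 1.87% passed these criteria. The groups did not overlap for 2 of the 8 tested genes, Acot3 and Acot8, and for 6.95% of all genes. Fold changes are on the log2(normalized count + 1) scale throughout. 7 of the 8 had a negative log2 fold change, with a median of -0.33, beside a median of -0.0027 over all genes. The limma p was under 0.05 for 4 of the 8 (Acot2, Acot3, Acot4 and Acot8), beside 1779 of all 15885 genes. The exact permutation p was under 0.05 for 2 of the 8, again Acot3 and Acot8. With 4 against 4 libraries this needs groups that do not overlap, so it repeats that count.

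Acot3, which hydrolyses long-chain acyl-CoA in peroxisomes, had 6274, 11823, 9100 and 9201 normalized counts in the 4 saline L-Sirt1 KO livers. It had 5888, 3259, 4909 and 1755 in the 4 LNA29 livers. Every LNA29 liver was below every saline liver, and the gap between the nearest values was small. The means were 9099 ± 2267 and 3953 ± 1823 (SD, n = 4 each), 2.48-fold lower on the log scale with LNA29 (log2 fold change -1.31, SE 0.345; limma adjusted p = 0.192; exact two-sided permutation p = 0.0286, the smallest that 4 against 4 allows). This call was lost in 6 of the 8 fits that left out 1 library, where the fold change ran from -1.55 to -0.96. It was also lost with flow cell in the model (adjusted p = 0.271), with the replicate block (0.265), with no minimum mean (0.225) and without saline livers 2 and 4 (log2 fold change -1.08, adjusted p = 0.357).

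Acot1 had 3230, 13667, 2239 and 12010 normalized counts in the saline L-Sirt1 KO livers. The LNA29 livers had 2557, 2783, 2746 and 1881. Saline livers 2 and 4 stood far above all others, and saline livers 1 and 3 lay within or near the LNA29 values. The log2 fold change was -1.25 (SE 0.534) over all libraries and -0.13 without saline livers 2 and 4.

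The mitochondrial Acot2 had 561, 1494, 645 and 1455 normalized counts with saline and 551, 664, 489 and 496 with LNA29. Its high values were in the same saline livers 2 and 4, and the groups overlapped. The log2 fold change was -0.79 (SE 0.316; limma adjusted p = 0.396) and -0.14 without those livers. Acot4, which is active on succinyl-CoA and other dicarboxylic acyl-CoA, had 2891, 4422, 3378 and 3832 with saline and 2969, 2447, 2935 and 2011 with LNA29. Saline livers 2 and 4 were again the highest, saline liver 1 fell among the LNA29 values, and the difference did not pass (log2 fold change -0.49, SE 0.16; limma adjusted p = 0.295; exact permutation p = 0.0857).

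Acot8, a peroxisomal thioesterase of broad range, had 836, 1156, 757 and 1194 normalized counts with saline and 674, 661, 669 and 717 with LNA29. The groups did not overlap and saline livers 2 and 4 were the highest. The log2 fold change of -0.51 (SE 0.152) had a limma adjusted p of 0.26 and an exact permutation p of 0.0286, and it was -0.23 without those livers. The 4 remaining tested genes did not pass. Acot7, a cytosolic thioesterase best known from brain, had a log2 fold change of -0.10, Acot12 of -0.18, Acot13 of -0.08 and Acnat1 of 0.20. Acnat2 had 3553, 4465, 2951 and 4153 with saline and 3437, 3002, 5641 and 3558 with LNA29, and the groups overlapped (log2 fold change 0.02, SE 0.198).

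**Figure D1:**
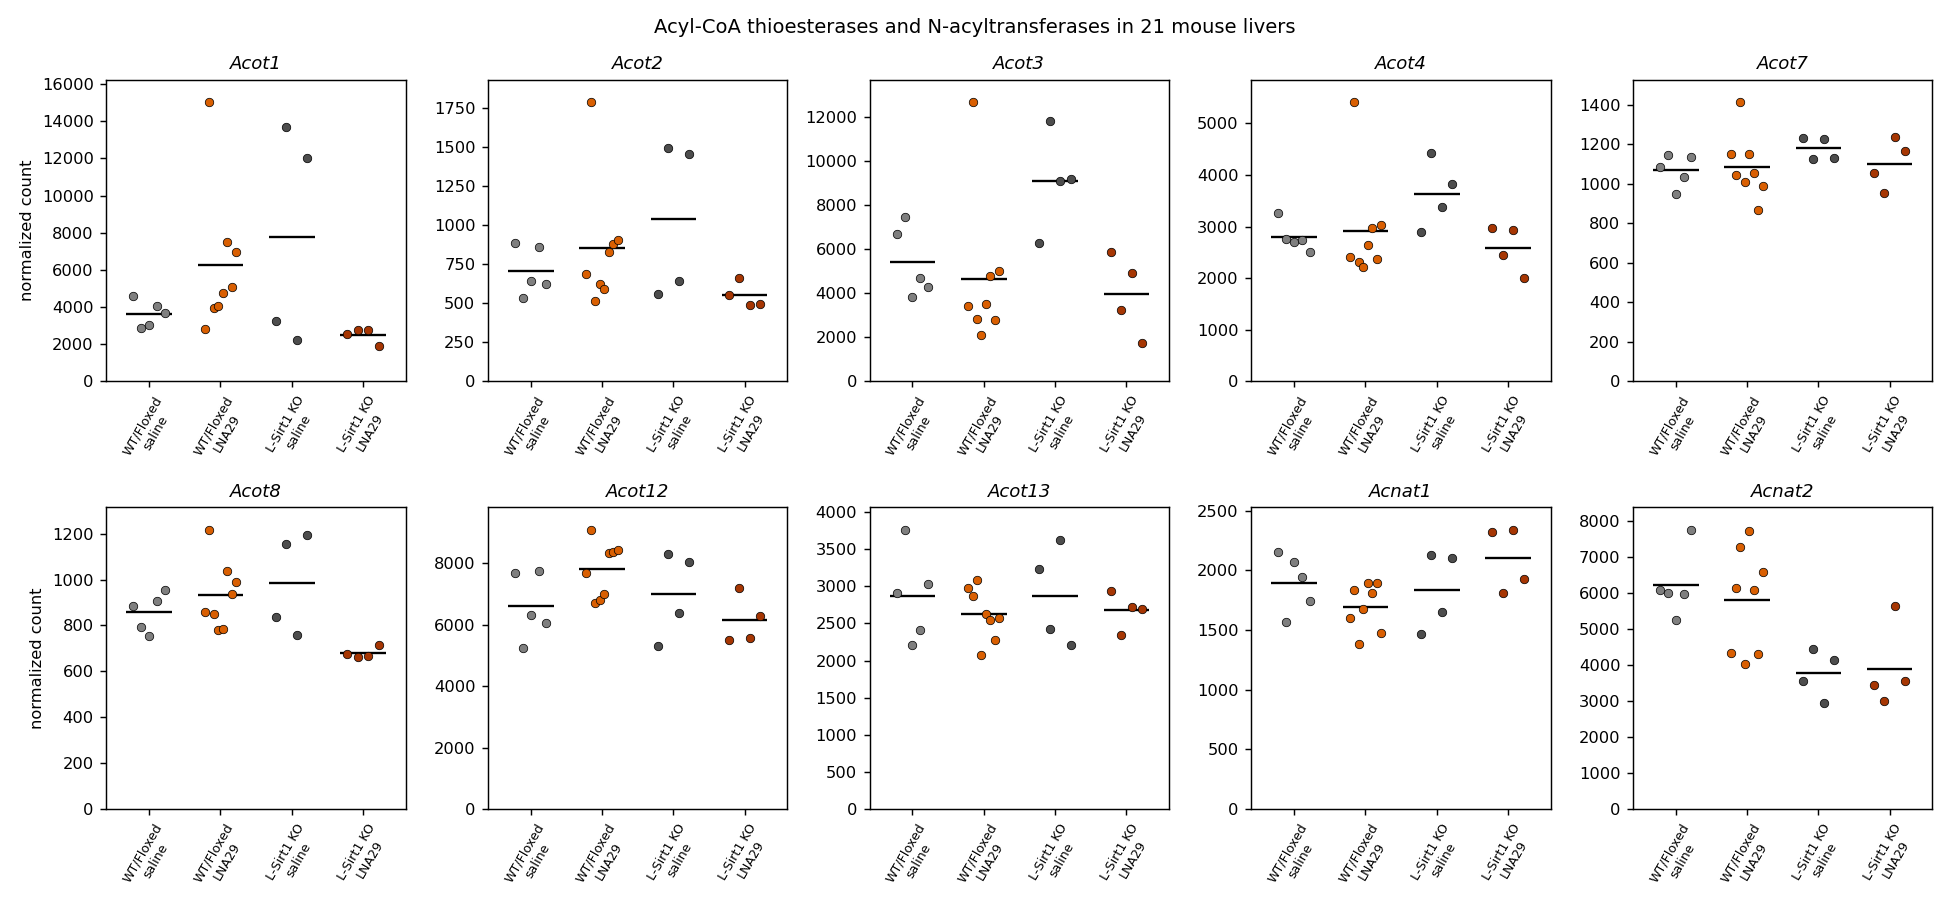
Normalized counts of the 10 genes in each of the 21 mouse livers, by group (WT/Floxed and L-Sirt1 KO, saline and LNA29). Each point is a liver and the bar is the group mean. Saline L-Sirt1 KO livers 2 and 4 hold the 2 highest values of that group for Acot1, Acot2, Acot3, Acot4, Acot8, Acot12, Acnat1 and Acnat2. Every Acot3 and Acot8 value of the LNA29 L-Sirt1 KO livers is below every saline one.

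The livers with high Acot1 were also those with high PPARα response genes. Of 15 such genes, 15 were above their table mean in WT/Floxed LNA29 liver 2 and in saline L-Sirt1 KO liver 2, and 14 in saline L-Sirt1 KO liver 4. The median deviation was 0.74, 1.13 and 0.77 on the log2 scale. In all other mouse livers it was -0.49 to 0.23. Cyp4a14, a fatty acid ω-hydroxylase and PPARα target, had 39367, 120452, 33852 and 95016 normalized counts in the saline L-Sirt1 KO livers and 19118 to 23514 in the LNA29 livers. Acot1 thus followed the same 2 livers as Cyp4a14. The part of feeding or time of day in these values was not tested. Saline L-Sirt1 KO liver 3, which was not among the high ones, had 7449 normalized counts of the clock output gene Dbp and 382 of the clock activator Arntl, against 48.5 to 480.3 and 1049.7 to 1949 in the other L-Sirt1 KO livers.

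**Figure D2:**
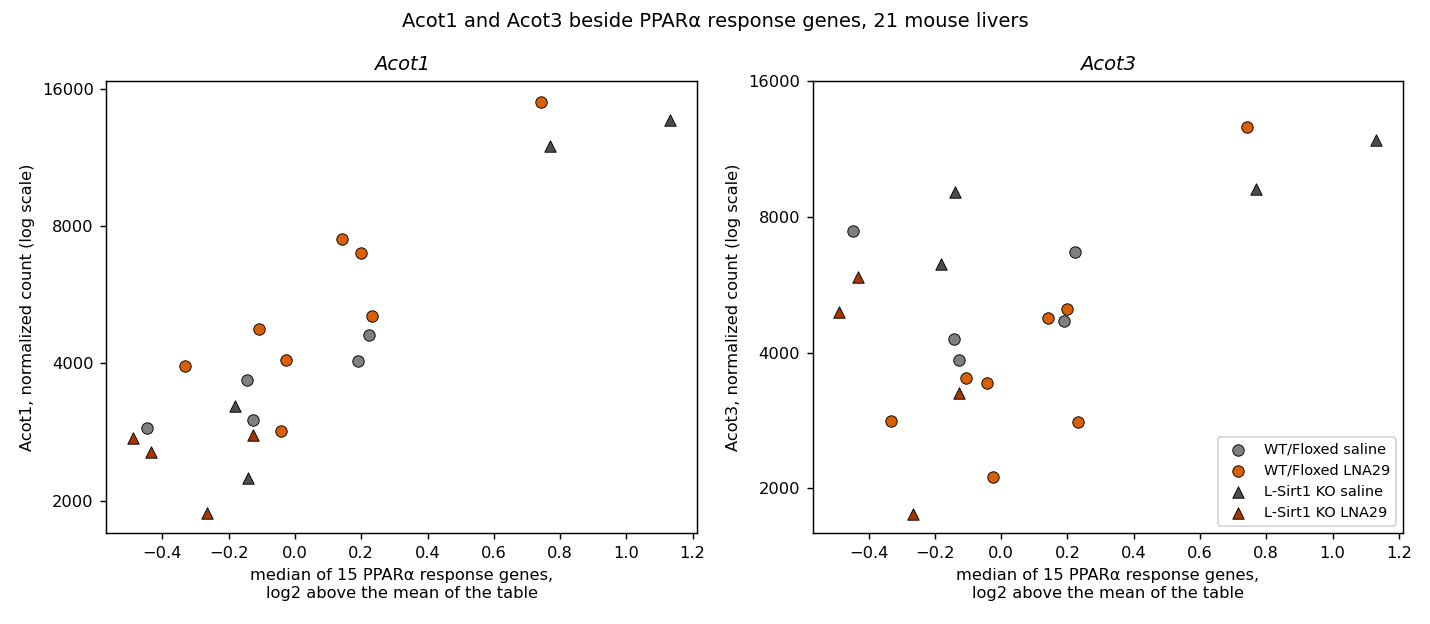
Normalized counts of Acot1 (left) and Acot3 (right) of each mouse liver, on a log axis, against the median deviation of 15 PPARα response genes in that liver from the mean of its table (log2). Circles are WT/Floxed and triangles L-Sirt1 KO livers. The 3 livers at the right are WT/Floxed LNA29 liver 2 and saline L-Sirt1 KO livers 2 and 4, and they hold the highest Acot1 values (15028, 13667 and 12010 normalized counts).

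In WT/Floxed livers 0 of the 8 tested genes were called by limma, beside 4.35% of all 15811 genes. The groups overlapped for all 8 and did not overlap for 1.51% of all genes. The limma p was under 0.05 for 1 of the 8, beside 2105 of all 15811 genes. The exact permutation p was under 0.05 for 0 of the 8, and this test was not run over all genes. The median log2 fold change of the 8 was 0.0098, beside 0.0017 over all genes. Of the 8, Acot12 was the gene with the unadjusted limma p under 0.05. It had 5250 to 7751 normalized counts with saline (median 6324) and 6709 to 9087 with LNA29 (median 8011). The ranges overlapped (log2 fold change 0.25, SE 0.106; limma adjusted p = 0.329; exact permutation p = 0.0591).

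Acot1 had 4614, 2892, 3011, 4042 and 3680 normalized counts in the saline WT/Floxed livers. With LNA29 the lowest value was 2843, the median 4926 and the highest 15028. 5 of the 8 LNA29 livers were above every saline liver and 1 was below all of them. The log2 fold change was 0.62 (SE 0.304), 0.42 without LNA29 liver 2, 0.51 within WT mice and 0.78 within floxed mice. Acot3 had 3849 to 7437 with saline (median 4704). With LNA29 it had 2116 to 12672 (median 3464), and its highest value was in the same LNA29 liver 2. The difference did not pass (log2 fold change -0.40, SE 0.336; limma adjusted p = 0.685).

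Acot2 had 533 to 887 normalized counts with saline and 516 to 1788 with LNA29 (log2 fold change 0.19, SE 0.244; limma adjusted p = 0.812). Its highest value was also in LNA29 liver 2, as was that of Acot4 at 5411. Acot4, Acot7 and Acot8 had log2 fold changes of 0.01, 0.01 and 0.11, Acot13 of -0.11 and Acnat1 of -0.16, and each had overlapping groups. Acnat2 had 5257 to 7769 with saline and 4046 to 7728 with LNA29. The LNA29 range held most saline values (log2 fold change -0.13, SE 0.163).

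The LNA29 response was then compared between genotypes as the difference of their log2 fold changes, L-Sirt1 KO minus WT/Floxed. 0 of the 8 tested genes passed an adjusted p under 0.2 by limma, beside 0.0449% of all 15601 genes. The unadjusted limma p was under 0.05 for 1426 of all 15601 genes and for 3 of the 8. These were Acot8 (difference -0.62, SE 0.187; adjusted p = 0.326), Acot2 (-0.97, SE 0.423; adjusted p = 0.484) and Acot12 (-0.42, SE 0.187; adjusted p = 0.496). For Acot3, called in L-Sirt1 KO alone, the difference of -0.91 (SE 0.54) had a limma p of 0.107, so a difference between genotypes was not shown. For Acot1 the difference was -1.87 (SE 0.618) and for Acnat2 it was 0.15 (SE 0.273), as a description.

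**Figure D3:**
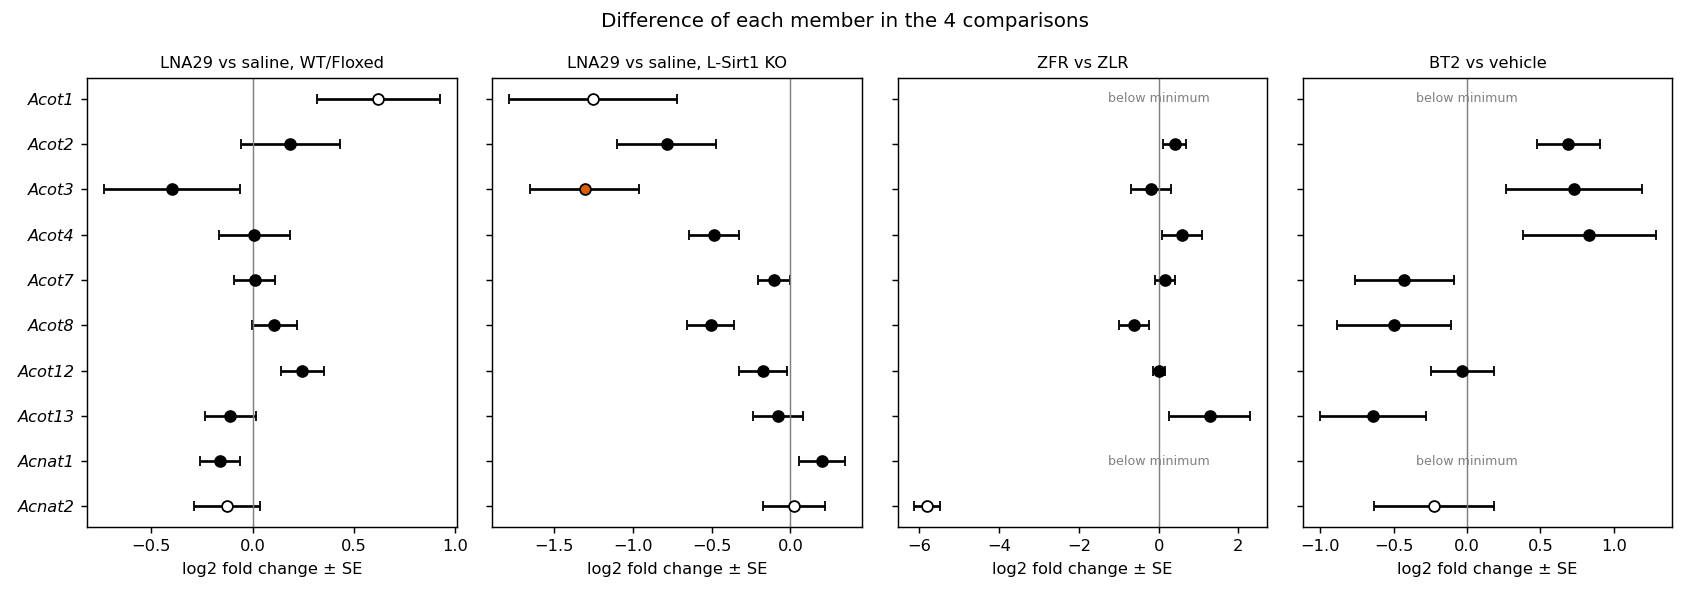
Log2 fold changes of the 10 genes in the 4 comparisons, with bars of 1 SE. The x axes differ between panels, hollow points are Acot1 and Acnat2, which are described with no test, and orange marks Acot3 in L-Sirt1 KO, the gene called there. Rat Acnat2 lies at -5.81 in the comparison of ZFR with ZLR.

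Between the pooled backgrounds, with treatment in the model, Acnat2 had 6916 ± 791 normalized counts in the 6 floxed mice and 5170 ± 932 in the 7 WT mice (log2 fold change 0.45, SE 0.11). Of the 8 tested genes 1 was called at an adjusted p under 0.2, beside 25.7% of all 15811 genes, which leaves the share at or under that of genes in general. It was Acnat1, with 1645 ± 201 in floxed and 1882 ± 198 in WT mice (log2 fold change -0.18, SE 0.0857; limma adjusted p = 0.2, just under the limit before rounding). Acnat1 and Acnat2 share 232 read windows. Age goes with the background, and the 2 cannot be told apart.

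Across the 21 mouse livers, with each table centred on its own mean, Acot1 went with Acot2 (Pearson r = 0.909) and Acot8 (r = 0.905), and Acot3 with its neighbour Acot4 (r = 0.923). Acot4 also went with Acot2 (r = 0.817) and Acot1 (r = 0.785), and Acot12 with Acot2 (r = 0.832). Acot1 and Acot3, of the same cluster, had r = 0.608. Acnat1 and Acnat2 had r = 0.194 and Acot12 and Acot13 r = -0.507. These are descriptions over 21 libraries that share depth, flow cells and 3 livers with extreme values, and Acot1 and Acot2 also share read windows. The genes most like Acot1 outside the list were Slc25a20, the mitochondrial carnitine carrier (r = 0.965), Rtf2 (0.957), Chrna2 (0.943), 1300002E11Rik (0.929) and Hadhb, a subunit of the mitochondrial trifunctional protein (0.920), among 12749 genes. Without the 2 libraries farthest from the mean Acot1 value they had 0.872 to 0.940. These correlations still held an extreme liver, so they do not show the likeness without all 3. The genes most like Acot3 were Atg12 (r = 0.830), Utp14a (0.826), Snrnp48 (0.806), Acadl (0.802) and Acaa1b (0.785). Those most like Acnat2 were Rab1a (0.812), Ero1lb (0.808), Gm17638 (0.800), Ywhab (0.782) and Ahsa2 (0.778).

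**Figure D4:**
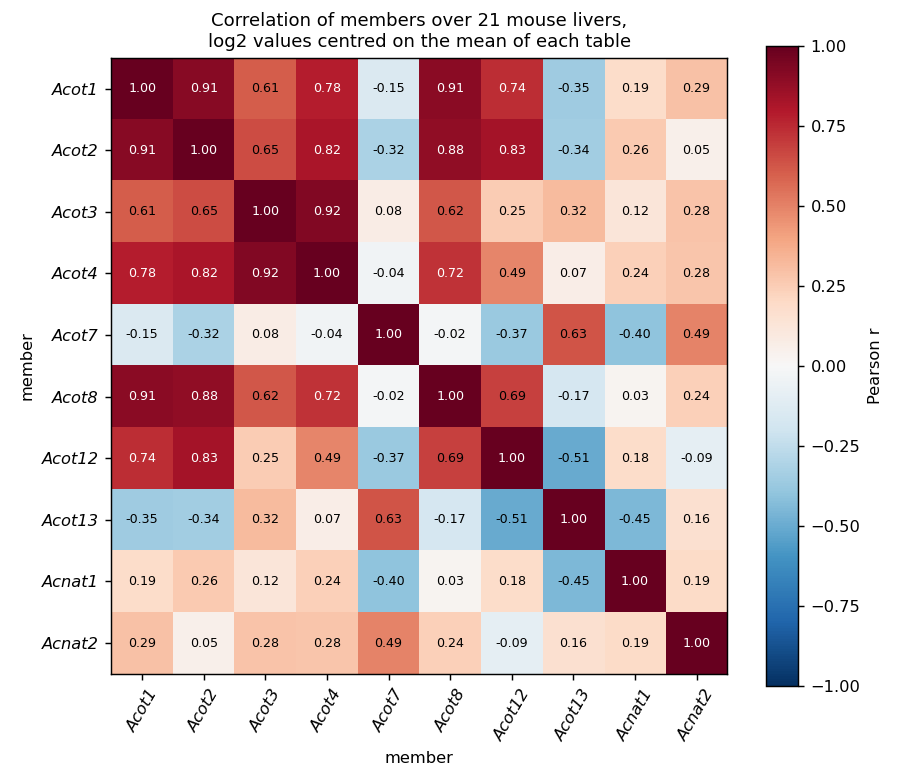
Pearson correlation of log2 normalized counts between the 10 genes over the 21 mouse livers, each table centred on its own mean. Acot1, Acot2, Acot4 and Acot8 have r of 0.721 to 0.909 with each other, Acot3 is closest to Acot4 (0.923), and Acnat1 and Acnat2 have 0.194.

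Of the related genes in L-Sirt1 KO livers, 0 of 10 other thioesterases and N-acyltransferases, 0 of 10 acyl-CoA synthetases and 0 of 7 genes of coenzyme A synthesis were called by limma. Of the 16 genes of peroxisomal oxidation, acyl export and coenzyme A hydrolysis, 2 fell, the peroxisomal thiolases Acaa1a (12263 ± 1945 with saline, 8776 ± 416 with LNA29, log2 fold change -0.47, adjusted p = 0.148) and Acaa1b. The median of these 16 was -0.27. Of the 15 PPARα response genes, 2 fell, Acaa1b again and Cyp4a14 (log2 fold change -1.53, SE 0.368, adjusted p = 0.158), with a median of -0.48. Of 7 fasting genes, 2 rose, G6pc and Igfbp1. 0 of 12 clock genes were called by limma, with a median log2 fold change of 0.89 over the 4 genes of the Arntl phase and -0.86 over the 8 of the opposite phase. Among cell type markers the macrophage genes Clec4f and Vsig4 (log2 fold change -0.54) and the endothelial gene Lyve1 (-1.17) fell. 0 markers of the other lists were called. Lyve1 was the 1 called of 6 endothelial markers, and their list median was -0.04. The summed endothelial list was 11720 to 12840 with LNA29 and 12032 to 13135 with saline, so its ranges overlapped. The summed macrophage list was 16963 to 22281 with LNA29 and 20246 to 23838 with saline, so its ranges overlapped, and its part in the thioesterase values was not tested. In such bulk samples fewer cells of a type and less RNA per cell cannot be told apart.

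In WT/Floxed livers 2 of 10 other thioesterases and N-acyltransferases fell, with a list median of -0.10. They were Acot11 (525 ± 113 with saline, 283 ± 131 with LNA29, log2 fold change -1.01, adjusted p = 0.12) and Baat (18163 ± 1283 with saline, 13658 ± 1849 with LNA29, log2 fold change -0.42, SE 0.0894, limma adjusted p = 0.0331). Of 15 PPARα response genes 1 rose, the hepatokine Fgf21 (1.90, adjusted p = 0.171), and the list median was 0.22. 0 of 11 acyl-CoA synthetases and 0 of 7 genes of coenzyme A synthesis were called by limma. Of 4 clock genes of the Arntl phase 1 rose, Nfil3 (0.36, adjusted p = 0.124), and 0 of 8 of the opposite phase were called. Of 7 fasting genes 1 fell, the tyrosine catabolic enzyme Tat (-0.48, adjusted p = 0.0993), while the list median was 0.68. Tat is also 1 of the 7 hepatocyte markers. Of these markers Apoa1 rose (0.51, adjusted p = 0.0312), and of 6 endothelial markers Lyve1 fell (-0.51, adjusted p = 0.165). The list medians were 0.07 for the hepatocyte and -0.06 for the endothelial markers. 0 markers of the other lists were called.

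In rats the values turned on Acnat2. It had 1089, 1238, 1035 and 836 normalized counts in the 4 ZLR livers. It had 36.0, 15.5, 9.99 and 16.8 in the 4 ZFR livers. Every ZFR liver was below every ZLR liver, and both groups had livers in each of the 2 flow cells. The means were 1050 ± 166 and 19.6 ± 11.3 (SD, n = 4 each), a log2 fold change of -5.81 (SE 0.319), and -6.14 to -5.56 when 1 library was left out. Behind these values stood about 28426, 28659, 98 and 80 reads in ZLR and 1117, 13, 5 and 11 in ZFR. In the libraries of at least 5 M reads (2 ZLR, 1 ZFR) the log2 fold change was -4.98. Acnat2 was chosen by this contrast.

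Across the 16 rat livers the genes most like Acnat2 were LOC298111 (r = 0.951), LOC100912565 (0.940), Cyp4f1, a fatty acid ω-hydroxylase (0.938), Rgn (0.932) and LOC259245 (0.928), among 3536 genes. This order rests on both tables, each centred on its own mean, with libraries of very different depth. The groups were not centred, so the contrast of ZFR with ZLR, by which Acnat2 was chosen, enters each r. A gene that differs between ZFR and ZLR can rank high for that reason alone.

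**Figure D5:**
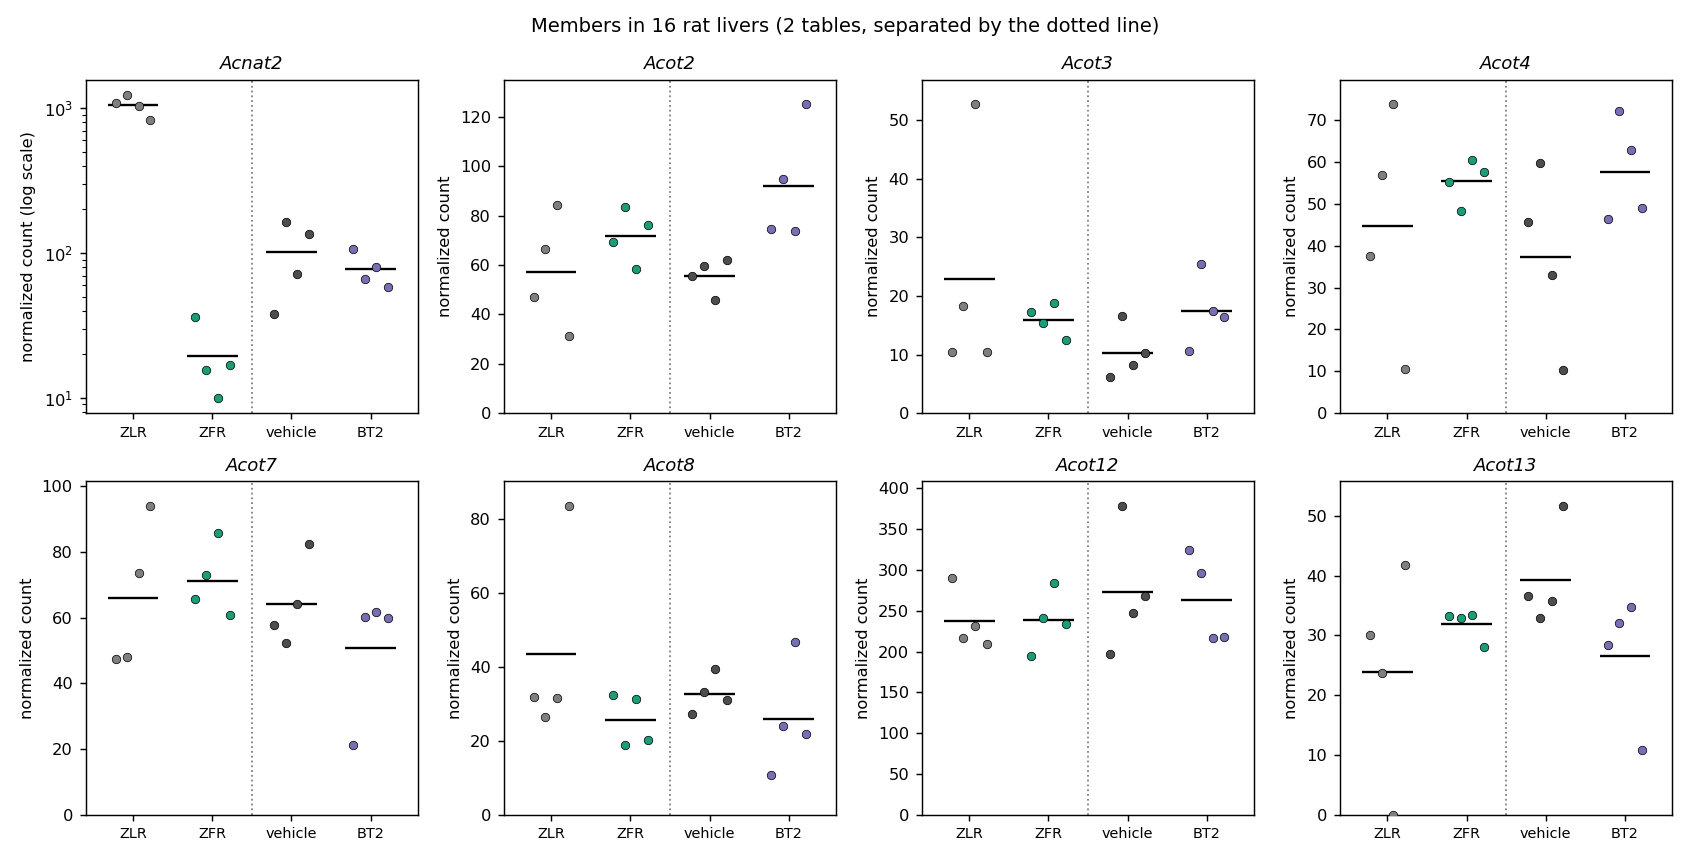
Normalized counts of the 8 genes above the minimum in each of the 16 rat livers, by group (ZLR, ZFR, ZFR with vehicle, ZFR with BT2), with a log axis for Acnat2 and linear axes for the others. Each point is a liver and the bar is the group mean. Acnat2 stands at separate levels in ZLR (836 to 1238) and ZFR (9.99 to 36.0), while the thioesterases overlap between these groups. The dotted line separates the strain and BT2 tables, which were normalized separately.

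Of the 7 tested genes above the minimum mean of 10 normalized counts, 0 were called between ZFR and ZLR at an adjusted p under 0.05 by limma, beside 4.25% of all 8633 genes. The limma p and the exact permutation p were under 0.05 for 0 of the 7, beside a limma p under 0.05 for 1429 of all 8633 genes. Their groups overlapped, beside 14.5% of all genes that did not overlap. The median log2 fold change of the 7 was 0.16, beside 0.07 over all genes. Acot2 had 71.9 ± 10.6 normalized counts in ZFR and 57.3 ± 23.1 in ZLR (log2 fold change 0.40; limma adjusted p = 0.515). Acot12 had 238 ± 36.5 and 237 ± 36.6. Acot13 had a log2 fold change of 1.29 (SE 1.02), but 0.04 without ZLR liver 3, where it was listed at 0 and the depth was 0.185 M reads. The remaining values were 0.60 for Acot4 (0.03 without ZLR liver 4), 0.16 for Acot7 and -0.61 for Acot8 (-0.25 without ZLR liver 4). Acot3 had 15.9 ± 2.74 in ZFR and 22.9 ± 20.2 in ZLR. 1 read was worth over 10 normalized counts in ZLR livers 3 and 4, so a value near 10 in those livers rests on about 1 read. Rat Acot1 was listed at 0 in all 4 ZLR livers and had 0.129, 1.18, 0 and 4.67 in ZFR. Rat Acnat1 had 0 to 10.5 in ZLR and 0 to 3.11 in ZFR, and both genes were under the minimum.

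With BT2, 0 of the 7 tested genes were called by limma, beside 0% of all 8405 genes. The limma p was under 0.05 for 1 of the 7, beside 332 of all 8405 genes. The exact permutation p was under 0.05 for 1 of the 7, which with 4 against 4 libraries needs groups that do not overlap. The groups did not overlap for 1 of the 7 and for 2.96% of all genes. This gene was Acot2, with 55.4, 59.8, 45.8 and 61.9 normalized counts with vehicle and 74.7, 94.8, 73.6 and 125 with BT2. Every BT2 liver was above every vehicle liver, but the difference did not pass (log2 fold change 0.69, SE 0.215; limma adjusted p = 0.898; exact permutation p = 0.0286). Acot3 had a log2 fold change of 0.73, Acot4 of 0.83 (0.33 without vehicle liver 4), Acot7 of -0.43, Acot8 of -0.50, Acot12 of -0.03 and Acot13 of -0.64, and none of these 6 passed. Acnat2 had 38.0, 164, 71.9 and 136 with vehicle and 106, 65.8, 79.99 and 58.5 with BT2. The BT2 values lay inside the vehicle range (log2 fold change -0.22, SE 0.407). Acot1 was listed at 0 in all 8 livers and Acnat1 at 0 to 4.00.

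Among related rat genes between ZFR and ZLR, 1 of 6 other thioesterases and N-acyltransferases fell in ZFR. This was Baat, with 2483 ± 491 in ZLR and 1300 ± 134 in ZFR (log2 fold change -0.92, SE 0.15, limma adjusted p = 0.00768). 4 of 10 acyl-CoA synthetases fell (Acsl1, Acsl4, Slc27a5 and Acsm3), the last with a log2 fold change of -2.20 (adjusted p = 0.00777). Of 13 peroxisomal genes 2 fell, Acox2 and Amacr, the racemase of branched-chain and bile acid intermediates (-1.12, adjusted p = 0.00275). Of 13 PPARα response genes 1 rose, the pantetheinase Vnn1 (1.41, adjusted p = 0.0496), and 0 of 6 genes of coenzyme A synthesis were called. Clock genes differed between ZFR and ZLR as well. Arntl (-2.46) and Npas2 (-3.65) fell, and Dbp (5.01), Per2, Per3 and Tef rose. The stellate cell gene Acta2 rose (2.24), and the summed stellate list was 236 to 350 in ZFR and 142 to 200 in ZLR. The endothelial gene Stab2 rose (1.16), but the list median over 5 markers was -0.075. The summed endothelial list was 387 to 534 in ZFR and 421 to 500 in ZLR, so its ranges overlapped. The hepatocyte genes Cps1 (-0.58) and Ttr fell, with a list median of -0.20 over 7 markers. Cela1 (-2.18), the 1 acinar gene tested, also fell. 0 of 6 fasting genes, 0 of 8 macrophage and 0 of 3 cholangiocyte markers were called by limma. The part of collection time and of cell composition in the Acnat2 and Baat values was not tested. With BT2 0 genes of these lists were called, by limma.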

How the data were processed

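Liver RNA was prepared as polyA+ libraries (TruSeq), aligned with STAR, quantified per gene with Salmon and normalized with DESeq2, to mm10 for mice and rn6 for rats, as given in the paper's methods and the submitters' processing notes. The deposited values are a signal, Salmon gene estimates divided by the DESeq2 normalization factors of the authors, with 1 normalization per table. Too few values were whole multiples of 1 read to recover counts, so no count model was run. 0 columns were left unmatched. Every column was assigned to its group through its label.

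After a log2 transform with a pseudocount of 1, linear models were fitted by limma 3.58.1 with an intensity trend, run in R 4.3.3. Genes with a mean of at least 10 were tested, with Benjamini-Hochberg adjustment over all of them. Fold changes are therefore on this log2 scale and understate those of low genes. Single genes were also tested by an exact two-sided permutation test over all splits of libraries. Sequences came from RefSeq and GENCODE tables (GRCm38) and were searched in Python 3.11.15 with Biopython 1.88. The tests were tried on simulated data with known changes. The replicate number was taken only as a name, because correlations between equally numbered livers of different groups ran from -0.281 to 0.241 over 17 pairs. The members and lists were chosen with earlier results of these data known. Named are all 10 genes and, of each list, its count of called genes and the called gene of largest change. Beyond this rule Acaa1b, Clec4f, G6pc, Slc27a5, Acsl1, Acsl4, Acox2, Arntl, Per2, Per3, Tef, Ttr, Baat in WT/Floxed mice and Dbp and Cyp4a14 by liver were picked once their values were known. Each result was recomputed with a pseudocount of 10, no minimum mean, equal library totals, quality or precision weights, flow cell, background or replicate block in the model, a stricter limit, depth limits and libraries left out. The peroxisomal list in WT/Floxed livers is not reported here.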

Additional observations from a re-analysis of the deposited data

Results flagged for a closer look

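Of 72 groups of 4 to 8 livers, 7 had an end value far from its nearest neighbour by Dixon's criterion, which chance gives in about 1 in 20 groups. 4 of the 7 were WT/Floxed LNA29 liver 2, which had 15028 normalized counts of Acot1 (next value 7488), 1788 of Acot2 (next 903), 12672 of Acot3 (next 4995) and 5411 of Acot4 (next 3026). These 4 genes are neighbours and share read windows, and the same liver had 15 of 15 PPARα response genes above its table mean. In rats Acot8 had 83.5 in ZLR liver 4 (next 31.8), where 1 read was worth over 10 normalized counts. Acot13 had 28.0 in ZFR liver 4 (next 32.9). Acot7 had 21.3 in BT2 liver 1 (next 59.8).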

How the results depend on the processing

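Of 326 alternative values over 36 results, 292 stayed on their side of the limit or within the spread between livers, 20 reversed, 6 came past it, 5 no longer passed and 3 values with no test moved. With LNA29 in L-Sirt1 KO livers the count of called genes, 1 in the report, depended on the setting. It was 0 with no minimum mean, with flow cell in the model and with the replicate block. It was also 0 at an adjusted p under 0.05 and without saline livers 2 and 4 (chosen after seeing the data). With quality weights it was 4 (Acot2, Acot3, Acot4 and Acot8), beside 804 of all 15885 genes. It was 0 to 3 when 1 library was left out. The Acot3 call remained without LNA29 liver 1 (adjusted p = 0.145) or saline liver 1 (0.168), and was lost without LNA29 liver 2 (0.363), 3 (0.267) or 4 (0.298) or saline liver 2 (0.334), 3 (0.282) or 4 (0.364). Acot2 and Acot4 were called only without saline liver 1, and Acot8 only without saline liver 3, among these 8 fits. In WT/Floxed livers the count was 1 (Acot12) with background as a covariate (log2 fold change 0.26, adjusted p = 0.191) and within floxed mice (0.43, adjusted p = 0.193). Over all genes, 988 of 15811 were called with background as a covariate and 842 of 15747 within floxed mice. Between ZFR and ZLR the count was 1 with quality weights (Acot7, 0.45, adjusted p = 0.0383), beside 1169 of all 8633 genes. The genotype difference had 3 with quality weights (Acot8, Acot2 and Acot12). The count over all genes with these weights is not given, so the 3 cannot be set beside it. With 1 library left out the genotype difference had 0 to 1 (Acot8, adjusted p = 0.13 without saline L-Sirt1 KO liver 3). The replicate block changed no other call of these genes.

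No reversed value passed the limit (adjusted p of at least 0.626). In WT/Floxed livers Acot4 was -0.025 with quality weights and -0.0064 within WT mice, Acot7 -0.011 with quality weights, -0.0057 with background and -0.012 within WT mice, and Acot13 0.013 within WT mice. In L-Sirt1 KO livers Acot12 was 0.068 without saline livers 2 and 4, and Acot13 0.037 with quality weights. Between ZFR and ZLR Acot3 was 0.039 with quality weights, 0.16 with precision weights, 0.30 in libraries over 5 M and 0.096 in those over 1 M. Acot8 was 0.16 over 5 M, and Acot12 was -0.13, -0.038, -0.36 and -0.17 in the same order as Acot3. With BT2 Acot7 was 0.071 and Acot8 0.024 in libraries over 1 M, and Acot12 0.0033 with quality weights. With 1 library left out the ranges were -0.13 to 0.065 for Acot4 and -0.045 to 0.056 for Acot7 in WT/Floxed. They were -0.19 to 0.043 for Acot13 in L-Sirt1 KO and -0.17 to 0.14 for Acot12 with BT2. Between ZFR and ZLR they were -0.44 to 0.30 for Acot3 and -0.079 to 0.11 for Acot12. The causes were not tested.

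Acnat2, which has no test, changed sign within the spread between livers in 6 alternative fits (-0.17 to 0.07). These include fits with 1 library left out, which are not among the 292. Calls over all genes moved as well. With 1 library left out they ran from 381 to 1006 in WT/Floxed livers and 77 to 426 in L-Sirt1 KO livers. They ran from 225 to 379 between ZFR and ZLR and 0 to 2 with BT2. In WT/Floxed livers 688 became 1308 with quality weights, 396 with no minimum, 88 within WT mice and 56 with the replicate block. In L-Sirt1 KO livers 297 became 804 with quality weights, 160 with no minimum, 103 with flow cell and 145 with the block. Between ZFR and ZLR 367 became 1169 with quality weights, 628 with precision weights, 241 with no minimum, 221 with the block and 73 over 5 M. Equal totals raised the share of higher calls between ZFR and ZLR from 42.2% to 55.7% and in WT/Floxed livers from 55.7% to 66.1%. The BT2 comparison above 5 M reads was not run, since it left 1 vehicle library. Rat depth limits genes near 10 normalized counts, where 1 read in the shallowest libraries is worth as much.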
